A study of Homo sapiens with 18 samples.

Results

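The 10 genes GNAL, GNAI1, GNAI2, GNAI3, GNAO1, GNAZ, GNAQ, GNA11, GNA12 and GNA13 encode α subunits of heterotrimeric G proteins other than Gαs, which is the product of GNAS. They were chosen by name, without GNAS, and all 10 were found among the 23925 genes with a count in these libraries. RNA was sequenced from HEK293 cells, a human embryonic kidney line, in 6 groups of 3 biological replicates. The groups were wildtype cells, Gαs KO cells and β-arrestin1/2 KO cells, each with vehicle (basal) or with 1 μM isoproterenol, a β-adrenergic agonist, for 1 h. All groups, the wildtype ones included, carried a transfected plasmid for the β2-adrenergic receptor (β2AR) for 48 h and had been serum starved overnight. The KO lines were made with CRISPR–Cas9. How many clones stood behind each line, and whether the guides used for the Gαs KO line also cut GNAL, is not given in the sources used here. The question put to the data was whether the RNA of other α subunits differs in cells without Gαs.

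A G protein α subunit binds GDP at rest and exchanges it for GTP when an activated receptor engages it, which frees it and the βγ dimer to act on effectors. The Gs class (Gαs and Gαolf, encoded by GNAL) stimulates adenylyl cyclase, the Gi/o class (GNAI1, GNAI2, GNAI3, GNAO1 and GNAZ) inhibits adenylyl cyclase, the Gq/11 class (GNAQ and GNA11) activates phospholipase C-β, and the G12/13 class (GNA12 and GNA13) acts on the cytoskeleton through guanine nucleotide exchange factors. β2AR couples mainly to Gαs, and Gαolf is best known from olfactory neurons and the striatum.

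The extreme C terminus of the α subunit contacts the receptor and differs between the classes, so the last 30 coding bases of the leading protein-coding transcript of each member are shown beside those of GNAS. They were read from GENCODE release 29 (GRCh38) 5′ to 3′ on the coding strand. Capitals mark codon 4 from the end, the place of the cysteine that pertussis toxin modifies in most Gi/o members.
GNAS: cgcatgcaccttcgtcagTACgagctgctc
GNAL: cggatgcacctcaagcagTATgagctcttg
GNAI1: aaaaataatctaaaagatTGTggtctcttt
GNAI2: aagaacaacctgaaggacTGCggcctcttc
GNAI3: aaaaacaacttaaaggaaTGTggactttat
GNAO1: gccaaaaacctgcggggcTGTggactctac
GNAZ: cagaacaatctcaagtacATTggcctttgc
GNAQ: cagttgaacctgaaggagTACaatctggtc
GNA11: cagctcaacctcaaggagTACaacctggtc
GNA12: caggagaacctgaaggacATCatgctgcag
GNA13: catgacaacctcaagcagCTTatgctacag

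GNAL shared 21 of these 30 bases with GNAS, GNAQ shared 18 and GNA11 shared 17. The other members shared 9 to 13. GNAI1, GNAI2, GNAI3 and GNAO1 carried a cysteine codon at the marked place and GNAZ did not, and GNAQ and GNA11 carried the same codon there as GNAS. Each run lay within a single exon. That of GNAL was at chr18:11881103-11881132, on the plus strand, and that of GNAS at chr20:58910797-58910826, also on the plus strand.

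The libraries held 17908597 to 25019834 counted read pairs each. The deposited values were estimated counts per transcript, which were summed to genes of GENCODE release 29. Levels below are CPM, counts relative to the library total as scaled by edgeR's TMM method. A single fit of all 18 libraries and 15519 genes gave the differences and their quasi-likelihood tests (edgeR). A gene is called where its Benjamini-Hochberg adjusted p over all tested genes is under 0.05. All 10 members passed the filter on low counts. GNAS checked the label of the Gαs KO line: it had 1067 to 1753 CPM in the 3 wildtype basal libraries and 61.3 to 71.3 CPM in the Gαs KO basal libraries. ARRB2, which encodes β-arrestin2, was lower in β-arrestin1/2 KO than in wildtype cells at 15.2 to 23.0 against 79.8 to 132 CPM over both conditions (log2 differences of -2.25 and -2.28, both called), and ARRB1, at 37.9 to 43.5 against 38.5 to 65.3 CPM, was not called. Of 6 markers that HEK293 cells are known for, VIM (mesenchymal), KRT8 and KRT18 (epithelial) and NEFL (neuronal) were above 86 CPM in every library, whereas PAX2 and NEFM stayed below 4 CPM. These levels differed between the lines. In Gαs KO against wildtype cells 2 of the 6 were called higher at basal (NEFL, at 325 against 92.3 CPM, and VIM, at 1485 against 902 CPM) and 3 with isoproterenol, and 0 were lower. In β-arrestin1/2 KO cells at basal NEFL was at 188 CPM and VIM at 665 CPM. Of markers of other cells, PTPRC, PECAM1, CDH5, ALB and EPCAM stayed below 2 CPM, and COL1A1, a fibroblast collagen, was lower in Gαs KO (20.7 ± 2.21 CPM) than in wildtype cells (34.8 ± 10.9 CPM) at basal, by 0.76 in log2 units and by 0.47 without the library described next. The part of these marker differences in the results on the α subunits was not tested. The comparisons are of bulk RNA, in which fewer cells of a type and less RNA per cell cannot be told apart. The p-values rest on the spread between replicates within groups, estimated jointly from all 18 libraries. They do not measure a spread between clones or between separately edited lines.

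One library stood apart. The transcripts counted in wildtype basal replicate 1 had a mean GC content of 52.5%, against 49.1 to 50.1% in the other 17 libraries. The members' departures in this library went with their own GC content. The 4 members with a GC content of 38.6 to 41.8% were low in it, with log2 differences from the mean of replicates 2 and 3 of -1.0 for GNAQ, -0.97 for GNA13, -0.58 for GNAI1 and -0.34 for GNAI3. The 5 members with a GC content of 54.3 to 62.8% were high in it, from 0.14 for GNAZ to 0.49 for GNA11 and 0.76 for GNAO1. GNAL, at 48.1%, lay close to the other 2 replicates (-0.15). For the members, differences from wildtype basal cells printed below are therefore also given without this library in some cases. These are cases where leaving it out changed a call or a direction, or moved a value by over 1.5 times.

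**Figure D1:**
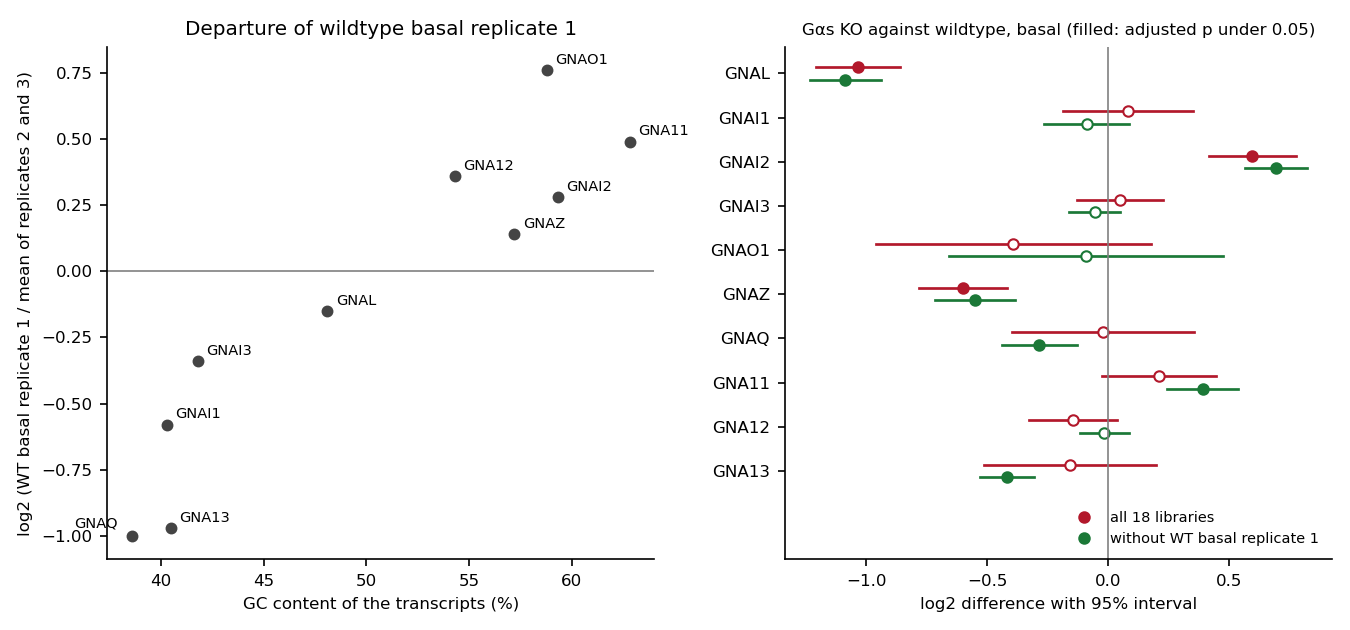
Left, the log2 ratio of wildtype basal replicate 1 to the mean of replicates 2 and 3 for each member (y axis) against the GC content of its transcripts in percent (x axis), running from -1.0 for GNAQ to 0.76 for GNAO1. Right, log2 differences between Gαs KO and wildtype cells at basal with 95% intervals, from all 18 libraries (red) and without that library (green), where filled points have an adjusted p under 0.05. GNAL, GNAI2 and GNAZ are filled in both, and GNAQ, GNA11 and GNA13 are filled only in green.

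GNAL, the member closest to GNAS, was lower in Gαs KO cells. The gene spans 11688956 to 11885685 of chromosome 18 (GRCh38), and its transcript GNAL-202 took 97.1% of the counts. At basal the wildtype replicates had 67.9, 78.5 and 72.3 CPM and the Gαs KO replicates 34.0, 36.3 and 36.3 CPM. With isoproterenol they had 73.6, 82.4 and 81.3 CPM, and 36.5, 39.8 and 36.4 CPM. Every Gαs KO library was below every wildtype library in both conditions. The log2 difference was -1.04 at basal (SE, the standard error, 0.08, adjusted p = 1.15e-07 by the edgeR quasi-likelihood test) and -1.07 with isoproterenol (SE 0.08, adjusted p = 7.71e-08, same test), a level 2.05-fold and 2.11-fold lower. Without wildtype basal replicate 1 the basal value was -1.09. Over all alternative settings the basal log2 difference ran from -1.35 to -0.98, and it was called in 29 of 29 settings.

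GNAL was also lower in β-arrestin1/2 KO cells than in wildtype cells. The β-arrestin1/2 KO replicates had 48.2, 52.4 and 44.96 CPM at basal and 45.9, 47.2 and 46.8 CPM with isoproterenol, below the wildtype and above the Gαs KO libraries without overlap. The log2 difference from wildtype was -0.59 at basal (adjusted p = 4.32e-05) and -0.76 with isoproterenol (adjusted p = 3.41e-06, edgeR's quasi-likelihood test for both). Gαs KO cells were lower still than β-arrestin1/2 KO cells, with log2 differences of -0.45 (adjusted p = 0.000571) and -0.31 (adjusted p = 0.00827, edgeR's quasi-likelihood test for both). The order of GNAL was thus wildtype, β-arrestin1/2 KO, Gαs KO in both conditions.

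Shared sequence touches the GNAL counts. Of the 6505 stretches of 31 bases in GNAL-202, 14 also occur in a GNAS transcript. A larger number, 2194, occur in MPPE1, a metallophosphoesterase gene that overlaps GNAL on the opposite strand over 2261 exon bases, and whether the libraries kept strand is not stated. MPPE1 had 9.14 to 17.9 CPM. It was not called between Gαs KO and wildtype cells (log2 difference 0.05 at basal, -0.10 without wildtype basal replicate 1, and 0.25 with isoproterenol) and was higher in β-arrestin1/2 KO than in wildtype cells (0.50 and 0.63, both called), where GNAL was lower. Between the KO lines it differed in the same direction as GNAL, with -0.45 at basal (called) and -0.38 with isoproterenol (not called). The basal MPPE1 value of 0.50 against wildtype includes wildtype basal replicate 1, at 9.14 CPM. Wildtype replicates 2 and 3 had 11.2 and 14.6 CPM, closer to the 14.9 to 17.6 CPM of the β-arrestin1/2 KO basal libraries. The part of MPPE1 reads in the GNAL counts was not tested. Other members share sequence as well. Of the 31-base stretches in their leading transcripts, 15.3% for GNA11, 11.2% for GNAI3, 7.51% for GNAZ and 7.19% for GNAQ occur in transcripts of other genes. For GNAI1, GNAI2, GNAO1, GNA12 and GNA13 the share was at most 0.39%. The part of such reads in these counts was not tested either.

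GNAI2, which encodes Gαi2, was higher in Gαs KO cells. The gene spans 50226292 to 50259355 of chromosome 3. At basal the wildtype replicates had 111, 91.8 and 90.6 CPM and the Gαs KO replicates 144, 152 and 147 CPM. With isoproterenol they had 88.0, 81.3 and 95.2 CPM, and 137, 147 and 147 CPM. The 2 lines did not overlap in either condition. The log2 difference was 0.60 at basal (SE 0.08, adjusted p = 5.36e-05 by the edgeR quasi-likelihood test) and 0.71 with isoproterenol (SE 0.08, adjusted p = 9.89e-06, same test), a level 1.51-fold and 1.63-fold higher. Without wildtype basal replicate 1, which was the highest wildtype library for this gene, the basal value was 0.69.

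GNAI2 was higher in β-arrestin1/2 KO cells as well. These had 122, 134 and 124 CPM at basal and 119, 127 and 127 CPM with isoproterenol, between the other 2 lines. The log2 difference from wildtype was 0.37 at basal (adjusted p = 0.00273) and 0.50 with isoproterenol (adjusted p = 0.000298, edgeR's quasi-likelihood test for both). The basal call was lost when the fit held those 2 groups alone (adjusted p = 0.119). Between the 2 KO lines the log2 difference of 0.22 at basal (95% interval 0.05 to 0.40, adjusted p = 0.0592) and of 0.21 with isoproterenol (0.03 to 0.38, adjusted p = 0.0723, edgeR's quasi-likelihood test) was not called, although the libraries did not overlap. DESeq2's Wald test called it in both conditions (adjusted p = 0.0315 and 0.0439), and over the 29 alternative settings it was called in 6 at basal and in 4 with isoproterenol.

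GNAZ, which encodes Gαz, the pertussis toxin-insensitive member of its class, was lower in both KO lines. The gene spans 23070361 to 23125037 of chromosome 22. The wildtype replicates had 54.9, 50.7 and 48.8 CPM at basal and 46.9, 46.6 and 53.4 CPM with isoproterenol. The Gαs KO replicates had 34.9, 34.4 and 32.6 CPM, and 30.2, 27.9 and 29.5 CPM. The β-arrestin1/2 KO replicates had 28.5, 33.9 and 31.4 CPM, and 32.6, 35.1 and 33.8 CPM. No library of either KO line reached the lowest wildtype library. The log2 difference between Gαs KO and wildtype cells was -0.60 at basal (adjusted p = 6.24e-05) and -0.75 with isoproterenol (adjusted p = 7.03e-06). For β-arrestin1/2 KO cells it was -0.72 (adjusted p = 1.07e-05) and -0.53 (adjusted p = 0.000198, edgeR's quasi-likelihood test for all 4). Between the KO lines the differences of 0.12 and -0.21 were not called.

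**Figure D2:**
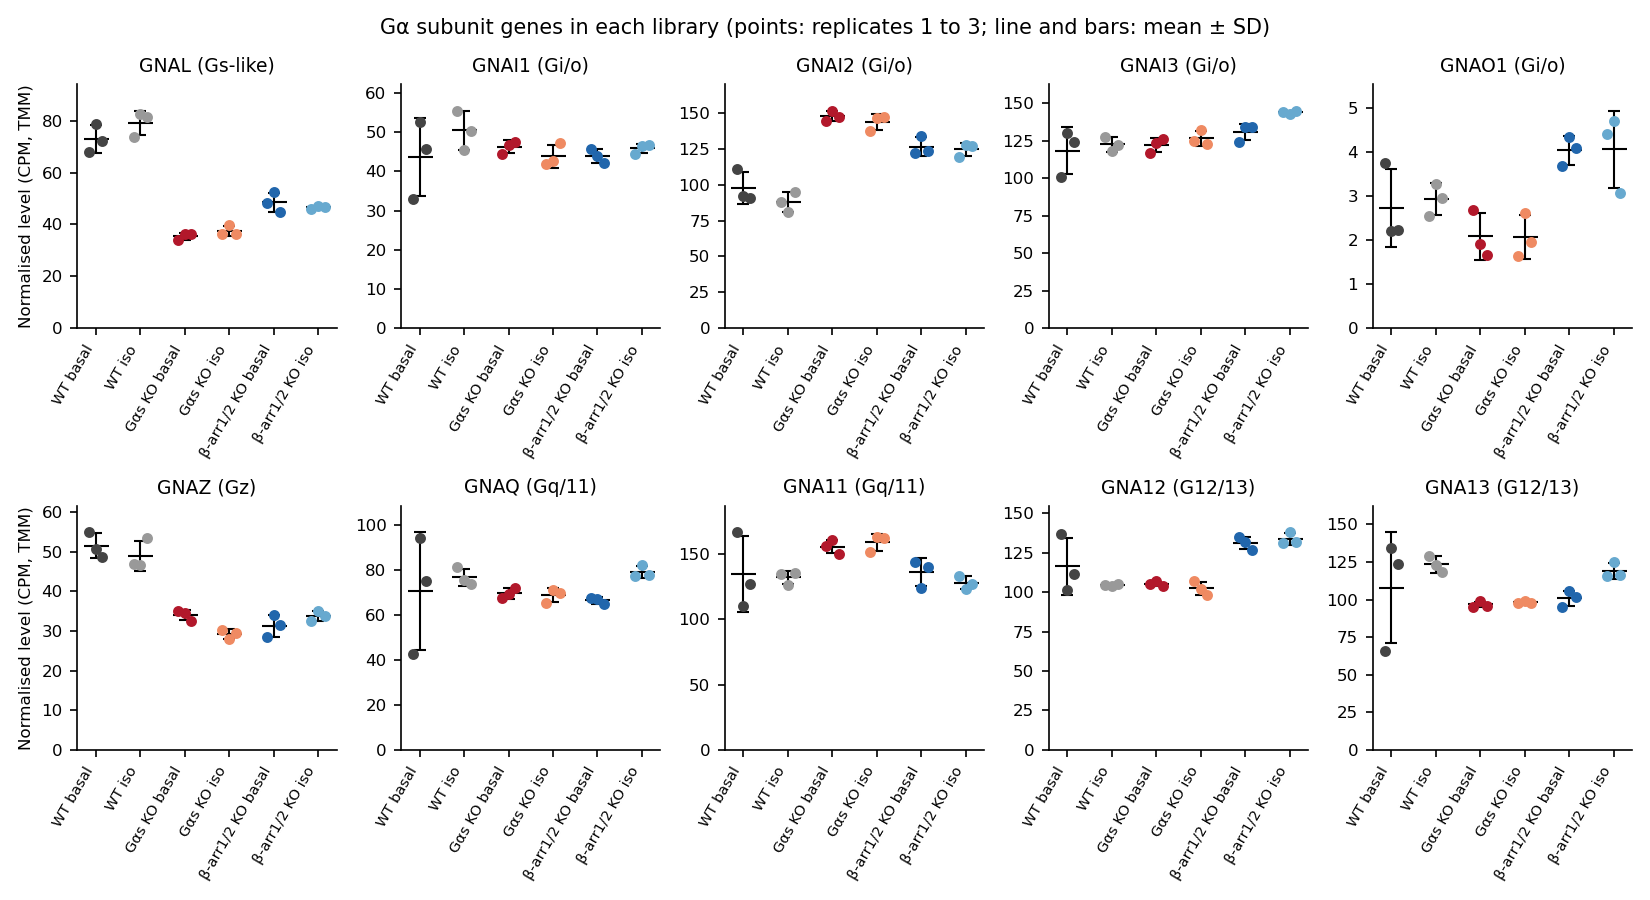
Normalised level in CPM (y axis, from 0) of the 10 members in the 18 libraries by group (x axis), with a point per replicate and the mean ± SD. GNAL lies at 34.0 to 39.8 CPM in the 6 Gαs KO libraries and at 67.9 to 82.4 CPM in the 6 wildtype libraries, and GNAI2 and GNAZ also separate these lines.

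The other Gi/o members were not called in Gαs KO against wildtype cells. GNAI1 (chromosome 7) had 43.7 ± 9.97 CPM in wildtype and 46.2 ± 1.67 CPM in Gαs KO cells at basal (SD, n = 3), a log2 difference of 0.08 with a 95% interval of -0.19 to 0.35, and of -0.09 (-0.27 to 0.09) without wildtype basal replicate 1. With isoproterenol it was -0.20 (-0.47 to 0.07), not called, and it was called with that library left out (adjusted p = 0.0333 by the edgeR quasi-likelihood test). Its counts were split between the protein-coding transcript GNAI1-201, with 36.2% and a transcript annotated as a target of nonsense-mediated decay, with 36.1%. GNAI3 (chromosome 1) had 118 ± 15.6 and 122 ± 4.71 CPM, a difference of 0.05 (-0.13 to 0.23) that was -0.06 (-0.16 to 0.05) without that library. With isoproterenol it was 0.05 (-0.13 to 0.23). It was higher in β-arrestin1/2 KO than in wildtype cells with isoproterenol, at 143 to 145 against 118 to 128 CPM, by 0.23 in log2 units (adjusted p = 0.0443 by the edgeR quasi-likelihood test). That call held in 12 of 29 alternative settings and in 3 of the 18 fits that left out 1 library.

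GNAO1, which encodes the neuronal Gαo, was the least abundant member and was covered by 32 to 105 counts per library. It had 2.73 ± 0.888 CPM in wildtype, 2.08 ± 0.532 CPM in Gαs KO and 4.03 ± 0.338 CPM in β-arrestin1/2 KO cells at basal (SD, n = 3). Gαs KO libraries (1.66 to 2.68 CPM) lay below all β-arrestin1/2 KO libraries (3.67 to 4.34 CPM), and the lines differed by -0.95 in log2 units (SE 0.26, adjusted p = 0.0132 by the edgeR quasi-likelihood test). With isoproterenol the difference was -0.97 (adjusted p = 0.0107, same test). Both calls were lost when gene sums were scaled by transcript length (-0.59 and -0.87). Against wildtype cells at basal the log2 difference in Gαs KO cells was -0.39 (-0.96 to 0.18), and -0.09 (-0.66 to 0.48) without wildtype basal replicate 1, so that no difference was detectable at this depth. In β-arrestin1/2 KO cells it was 0.56 (not called) and 0.87 without that library (called).

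Of the Gq/11 class, GNA11 (chromosome 19) had 156, 161 and 150 CPM in Gαs KO and 167, 110 and 127 CPM in wildtype cells at basal, and the lines overlapped only through wildtype basal replicate 1. The log2 difference of 0.21 (95% interval -0.03 to 0.45) was not called with that library and was 0.39 without it (adjusted p = 0.00018, edgeR's quasi-likelihood test). With isoproterenol all Gαs KO libraries (152 to 163 CPM) were above all wildtype libraries (127 to 136 CPM), and the difference of 0.27 was not called (adjusted p = 0.0821) but was without wildtype basal replicate 1 (adjusted p = 0.00142, same test). That library is no part of the isoproterenol comparison and enters it through the shared estimate of the spread. GNAQ (chromosome 9) had 42.3, 94.0 and 75.2 CPM in wildtype and 67.4, 69.1 and 71.9 CPM in Gαs KO cells at basal. Its log2 difference was -0.02 (-0.40 to 0.36), and -0.29 without wildtype basal replicate 1 (adjusted p = 0.00407, same test). With isoproterenol all Gαs KO libraries (65.3 to 71.1 CPM) were below all wildtype libraries (73.5 to 81.0 CPM). That difference of -0.16 was not called (adjusted p = 0.559, same test), and it was called in 2 of 29 alternative settings.

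Of the G12/13 class, GNA13 (chromosome 17) had 65.7, 134 and 124 CPM in wildtype and 95.4, 98.9 and 96.0 CPM in Gαs KO cells at basal. The wildtype library that stands apart was the lowest of all 18 and the other 2 wildtype libraries were above every Gαs KO library. The log2 difference was -0.16 (-0.51 to 0.20), and -0.42 without that library (adjusted p = 5.39e-06, edgeR's quasi-likelihood test). With isoproterenol it was -0.33 and not called (adjusted p = 0.155) with wildtype at 118 to 129 CPM and Gαs KO at 97.7 to 98.7 CPM, and it was called without that library (adjusted p = 1.88e-05, same test).

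GNA12 (chromosome 7) had 137, 102 and 111 CPM in wildtype and 105, 107 and 104 CPM in Gαs KO cells at basal. The log2 difference of -0.15 (-0.33 to 0.04) was not called, and it was -0.02 (-0.12 to 0.08) without wildtype basal replicate 1. β-arrestin1/2 KO cells had 135, 132 and 127 CPM at basal and 131, 138 and 132 CPM with isoproterenol. Gαs KO cells were lower than these by 0.32 (adjusted p = 0.0112) and 0.38 (adjusted p = 0.00272) on the log2 scale, and β-arrestin1/2 KO cells exceeded wildtype cells with isoproterenol by 0.36 (adjusted p = 0.00464, edgeR's quasi-likelihood test for all). The transcripts behind these sums differed, however. GNA12-207, a processed transcript without a coding sequence, took 44.6 ± 9.27% of GNA12 counts in wildtype basal, 31.5 ± 5.88% in wildtype isoproterenol, 28.6 ± 1.74% and 26.2 ± 4.38% in Gαs KO, and 28.9 ± 8.28% and 43.6 ± 3.17% in β-arrestin1/2 KO libraries (SD, n = 3). With protein-coding transcripts only, the basal difference between Gαs KO and wildtype cells was 0.26 and called (adjusted p = 0.0453), and those with isoproterenol were 0.02 between the KO lines and 0.09 between β-arrestin1/2 KO and wildtype cells, neither called, so in these comparisons the GNA12 result depends on which transcripts are counted. The basal difference between the KO lines did not: it was called in 29 of 29 alternative settings (-0.35 to -0.30). That between β-arrestin1/2 KO and wildtype cells at basal was 0.17 and not called, 0.57 and called with protein-coding transcripts only, and 0.31 and called without wildtype basal replicate 1.

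**Figure D3:**
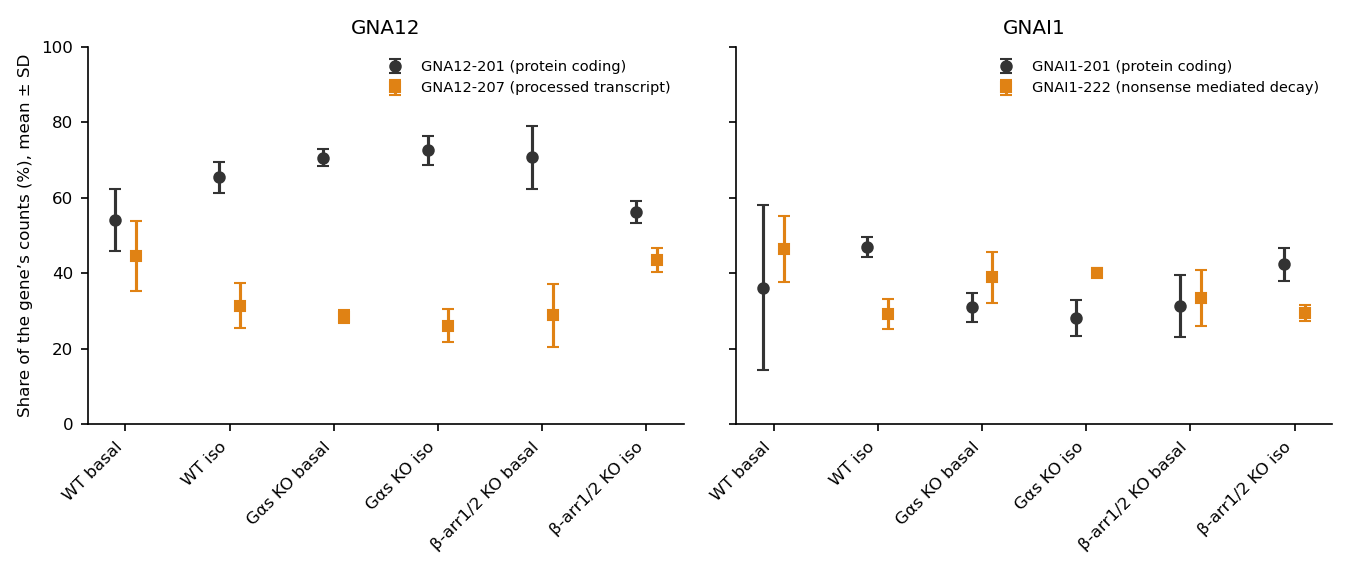
Share of the gene's counts in percent (y axis, mean ± SD over 3 replicates) of the 2 leading transcripts of GNA12 and GNAI1 in the 6 groups (x axis). The share of GNA12-207 lies between 26.2% and 44.6%, and the ranges of the 2 GNAI1 transcripts overlap in 3 groups.

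Counted over the members, Gαs KO and wildtype cells differed in 3 of 10 at basal, 1 higher and 2 lower. This is close to the share of all 15519 tested genes, of which 31.3% were called, 14.2% higher and 17.1% lower. With isoproterenol the same 3 members were called, GNAI2 higher and GNAL and GNAZ lower, against 29.9% of all genes, 14.1% higher and 15.8% lower. Libraries of the 2 lines did not overlap for 3 members at basal, where 38% of all genes did not overlap, and for 6 members with isoproterenol, where 56.9% did not. The median log2 difference of the members was -0.08 at basal and -0.18 with isoproterenol, and that of all genes was 0.01 in both. With wildtype basal replicate 1 left out, 6 members were called in each condition, beside 45.9% and 49.4% of all genes. These were GNAL, GNAI2, GNAZ, GNAQ, GNA11 and GNA13 at basal, and GNAL, GNAI1, GNAI2, GNAZ, GNA11 and GNA13 with isoproterenol. In both sets GNAI2 and GNA11 were higher and the other 4 lower.

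In β-arrestin1/2 KO against wildtype cells, 3 members were called at basal (GNAI2 higher, GNAL and GNAZ lower). Of all genes 33.6% were called, 15.7% higher and 17.9% lower, and 37.5% did not overlap, as did 3 members. With isoproterenol 5 members were called, GNAI2, GNAI3 and GNA12 higher and GNAL and GNAZ lower. The background was 30% of all genes, 14.3% higher and 15.7% lower, and 5 members and 55.8% of all genes did not overlap. When wildtype basal replicate 1 was left out, the calls came to 8 members at basal (all but GNAI1 and GNAI3), beside 46.7% of all genes, and 5 with isoproterenol, beside 49.6%. Both KO lines were compared with the same wildtype libraries, so the values of GNAL, GNAI2 and GNAZ in the 2 comparisons are not independent.

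Between the KO lines, which share no library, 3 members were lower in Gαs KO than in β-arrestin1/2 KO cells at basal (GNAL, GNAO1 and GNA12) and 0 were higher. Of all genes 26.2% were called, 12.4% higher and 13.8% lower. With isoproterenol GNA11 was higher, by 0.31 in log2 units (adjusted p = 0.0427 by the edgeR quasi-likelihood test), and GNAL, GNAO1 and GNA12 were lower. The GNA11 call held in 13 of 29 alternative settings and in 4 of the 18 fits that left out 1 library. The background was 31.1% of all genes, 15.7% higher and 15.4% lower. Libraries did not overlap for 5 members at basal (56% of all genes) and for 9 members with isoproterenol (60.3% of all genes), where GNAI1 was the exception. These comparisons use wildtype basal replicate 1 only through the shared estimate of the spread, and without it 5 members were called at basal, beside 45.3% of all genes, and 9 with isoproterenol, beside 51.1%. With isoproterenol the mean GC content was 49.89 to 50.06% in Gαs KO and 49.29 to 49.43% in β-arrestin1/2 KO libraries. GNAI2 (59.3% GC) and GNA11 (62.8%) were higher there and GNAI3, GNAQ and GNA13 (38.6 to 41.8%) lower. GNAL (48.1%), GNA12, GNAZ and GNAO1 (54.3 to 58.8%) were also lower. The part of GC content in these differences was not tested.

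**Figure D4:**
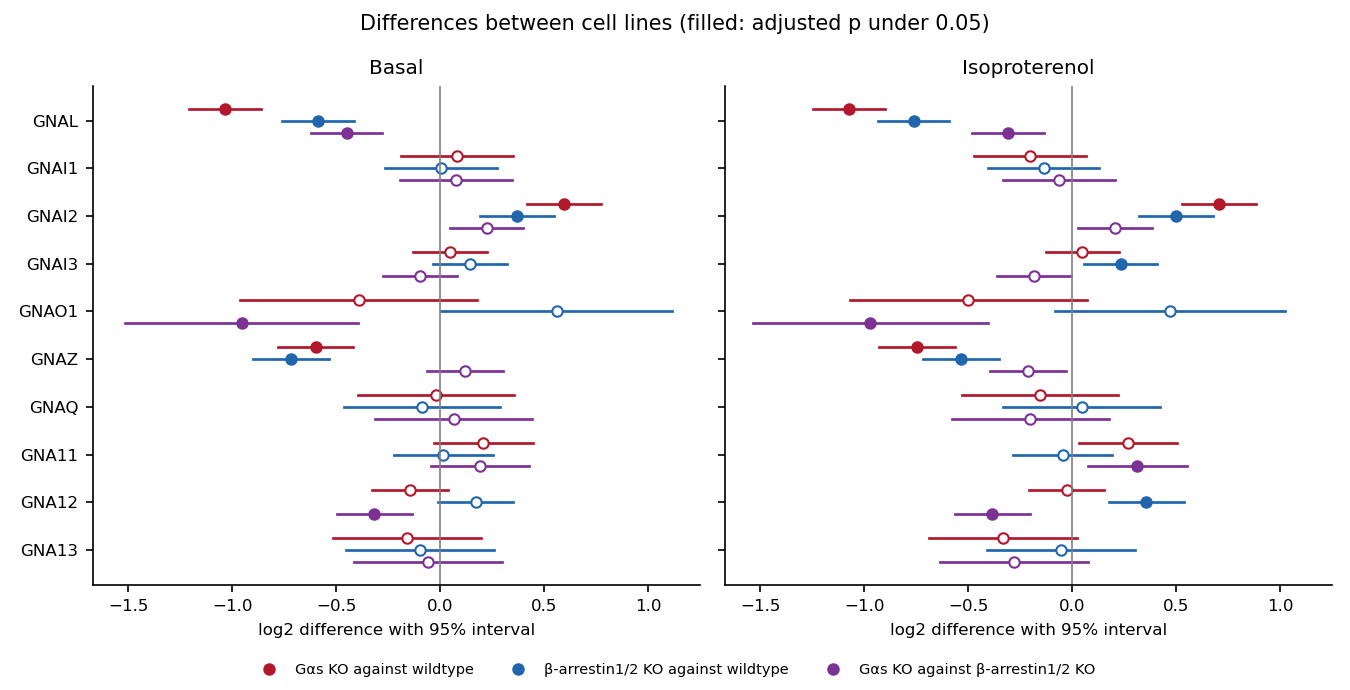
Log2 differences with 95% intervals (x axis) of the 10 members (y axis) at basal and with isoproterenol, for Gαs KO against wildtype (red), β-arrestin1/2 KO against wildtype (blue) and Gαs KO against β-arrestin1/2 KO cells (purple), where filled points have an adjusted p under 0.05. GNAL runs from -1.07 to -0.31 and is filled in all 6 comparisons, and GNAI1, GNAQ and GNA13 are filled in none.

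Isoproterenol called 0 of the 10 members in wildtype, β-arrestin1/2 KO or Gαs KO cells with edgeR, beside 0.464%, 1.13% and 0% of all genes. DESeq2's Wald test also called 0 in each line. At an unadjusted p under 0.05, the members were 0, 0 and 1. The share of all genes under this threshold was not counted, so these numbers have no background beside them. The 1 member was GNAZ in Gαs KO cells, with a log2 difference of -0.22 (95% interval -0.40 to -0.04) and libraries at 27.9 to 30.2 CPM below 32.6 to 34.9 CPM at basal. GNAL in wildtype cells differed by 0.12 between isoproterenol and basal (-0.05 to 0.29), and by 0.07 (-0.08 to 0.22) without wildtype basal replicate 1. GNAI2 differed by -0.15 (-0.33 to 0.03), and by -0.05 (-0.18 to 0.08) without it. The libraries of the 2 conditions did not overlap for 0 members in wildtype cells (9.01% of all genes), for GNAI3, GNAQ and GNA13 in β-arrestin1/2 KO cells, all higher with isoproterenol (29.7% of all genes), and for GNAL (higher) and GNAZ (lower) in Gαs KO cells (10.5% of all genes). Without wildtype basal replicate 1, GNAQ and GNA13 were called in β-arrestin1/2 KO cells, by 0.25 and 0.24 on the log2 scale, beside 11.7% of all genes, and 0 members in wildtype (1.1% of all genes) or Gαs KO cells (0%). Both were called in 2 of 29 alternative settings, which did not include the offsets for GC content. The β-arrestin1/2 KO libraries had a mean GC content of 49.76 to 50.1% at basal and 49.29 to 49.43% with isoproterenol. GNAI3, GNAQ and GNA13 have a GC content of 41.8, 38.6 and 40.5%, and GNAI1, at 40.3%, did overlap. The part of GC content in these differences was not tested.

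The response to isoproterenol itself, tested as an interaction between line and treatment, differed from that of wildtype cells for 0 members in β-arrestin1/2 KO cells, beside 0.168% of all genes, and for 0 in Gαs KO cells, beside 0.161%. At an unadjusted p under 0.05 there were 0 in either line with edgeR and with DESeq2, again without a counted share of all genes. Without wildtype basal replicate 1, GNAQ and GNA13 were called in β-arrestin1/2 KO cells (differences of 0.39 and 0.30), beside 8.25% of all genes, and 0 members in Gαs KO cells, beside 0.418%. In all 18 libraries the differences of GNAQ and GNA13 in β-arrestin1/2 KO cells were 0.13 and 0.05, and the values of both genes in that library were the lowest of the 18. For a view of the promoters, the letters TGACGTCA, the element bound by the cAMP-responsive factor CREB, and its shorter core TGACG were searched on both strands of RefSeq promoter windows (GRCh38.p14, 250 bases before to 50 after a start). The full element was in 1 of the 17 windows of the 8 members that had one, a window of GNAO1, and in 1.85% of all 35116 windows. TGACG, which the full element contains, was in 4 of the 17 member windows and in 24.6% of all windows. These matches describe the letters and no site of binding.

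Levels of different genes can be set side by side only per length, as TPM, the share of transcripts computed from the annotated transcript lengths. Among the members at wildtype basal, GNAI2 was the most abundant with 72.4 ± 1.75 TPM (SD, n = 3), and GNA11 (58.2), GNA12 (54.0), GNA13 (42.2), GNAI1 (32.1), GNAZ (28.1), GNAL (25.3) and GNAQ (21.8) followed in mean TPM. Each neighbour in this order from GNA11 to GNAQ overlapped the next. GNAI3 (7.84 TPM) and GNAO1 (0.958 TPM) came last and apart, but the only annotated GNAI3 transcript has 27174 bases, which lowers its level per length. In Gαs KO cells at basal the order began in the same way with GNAI2 (119 ± 2.40 TPM), GNA11 (74.7) and GNA12 (51.5), while GNAL, at 10.6 ± 0.355 TPM, stood below GNAQ (20.7) and GNAZ (20.3) without overlap.

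GNAS exceeded all of them in wildtype cells. At basal it had 1790 ± 926 TPM in wildtype cells, where replicate 1 reached 2860 TPM and the lowest library had 1250 TPM, and 109 ± 5.35 TPM in Gαs KO cells. With isoproterenol it had 1440 ± 68.1 TPM in wildtype and 110 ± 6.14 TPM in Gαs KO cells. The 10 members together had 343 ± 22.2 TPM in wildtype basal, 351 ± 14.2 TPM in wildtype isoproterenol, 381 ± 3.24 and 375 ± 10.9 TPM in Gαs KO, and 388 ± 6.49 and 390 ± 19.3 TPM in β-arrestin1/2 KO libraries (SD, n = 3). These sums were not tested, and the mean sum was higher in both KO lines than in wildtype cells. GNAS made up 81.9% (77.5 to 89.9%) of the summed α subunit level in wildtype basal and 22.2% in Gαs KO basal libraries. With isoproterenol these shares were 80.4% (79.8 to 81.7%) and 22.7%. They are shares of RNA, with GNAS summed over the 56 transcripts of the gene that were counted, and do not measure Gαs protein. The paper reports from a Western blot that Gαs expression was lost in the KO line. Within the 10 members, the share of GNAI2 was 21.2 ± 1.60% in wildtype, 31.2 ± 0.375% in Gαs KO and 27.4 ± 0.751% in β-arrestin1/2 KO cells at basal, and the share of GNAL was 7.36 ± 0.858%, 2.78 ± 0.0784% and 4.59 ± 0.571%.

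**Figure D5:**
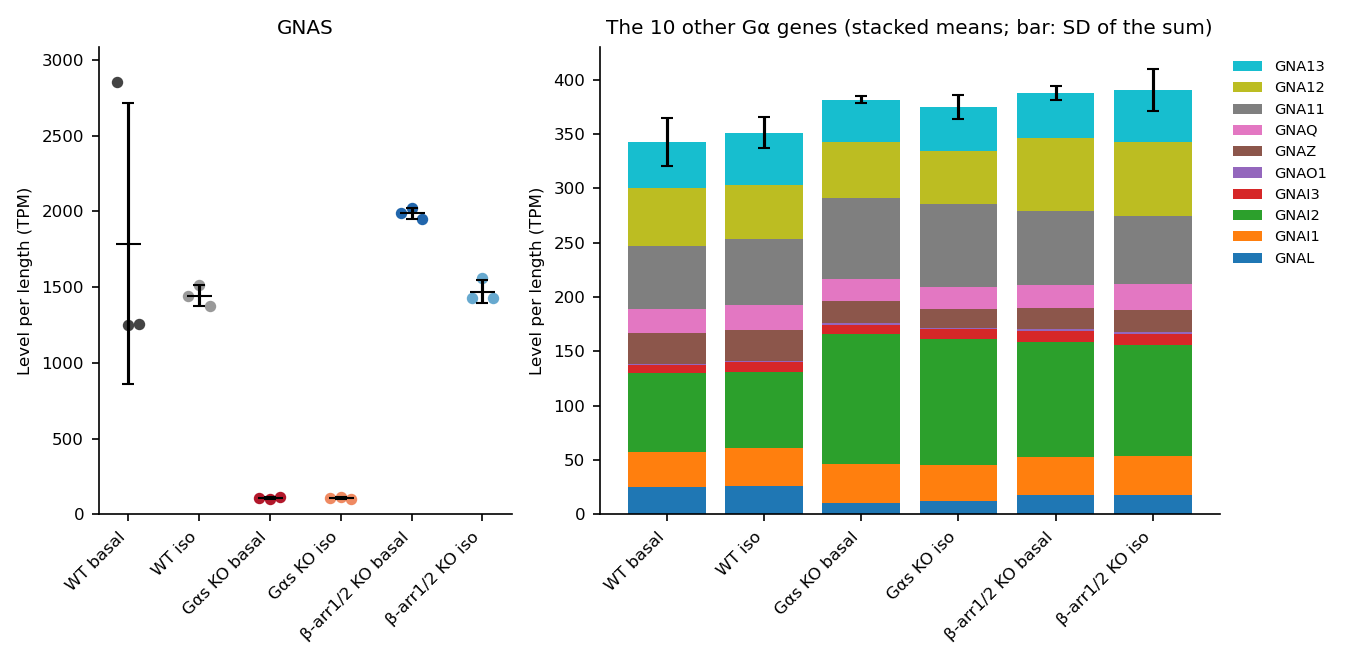
Levels per length in TPM (y axes, from 0) by group (x axis): left, GNAS with a point per replicate and the mean ± SD; right, the mean levels of the 10 other α subunit genes stacked, with the SD of their sum. GNAS is at 1440 TPM in wildtype and 110 TPM in Gαs KO isoproterenol libraries, one wildtype basal library reaches 2860 TPM, and the stacks lie between 343 and 390 TPM.

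Other genes of the pathway were read from lists of named genes. Of 16 effectors of α subunits (9 adenylyl cyclases, 4 phospholipases C-β and 3 guanine nucleotide exchange factors), 14 were tested. In Gαs KO against wildtype cells 1 was higher and 3 lower at basal, and 2 higher and 1 lower with isoproterenol, beside the 31.3% and 29.9% of all genes called. Without wildtype basal replicate 1 the counts were 4 higher and 3 lower, and 3 higher and 2 lower, beside 45.9% and 49.4%. ADCY1, a calcium-stimulated adenylyl cyclase, was lower in both conditions, by 0.65 (adjusted p = 0.000601) and 0.53 (adjusted p = 0.00327) on the log2 scale, with 98.9 ± 22 CPM in wildtype and 62.9 ± 0.829 CPM in Gαs KO cells at basal (SD, n = 3). PLCB1, an effector of Gαq, was higher by 0.54 (adjusted p = 0.0159) and 0.51 (adjusted p = 0.0227), with 30.6 ± 9.82 and 44.4 ± 1.76 CPM at basal, and the basal value was 0.30 without wildtype basal replicate 1 (adjusted p = 0.00119) (edgeR's quasi-likelihood test for all). Of 9 chaperones and regulators, 8 were tested and 1 was called, CCDC88C, a non-receptor regulator of Gαi, which was lower by 0.33 and 0.30. Neither PLCB1 nor CCDC88C differed from wildtype in Gαs KO cells alone: in β-arrestin1/2 KO cells PLCB1 was higher by 0.59 and 0.64 and CCDC88C lower by 1.19 in both conditions, all called, with CCDC88C at 17.9 ± 1.05 CPM at basal against 40.7 ± 4.29 CPM in wildtype and 32.3 ± 1.06 CPM in Gαs KO cells. The basal PLCB1 value of 0.59 includes wildtype basal replicate 1, at 19.5 CPM. Wildtype replicates 2 and 3 had 38.2 and 34.0 CPM, closer to the 43.9 to 47.2 CPM of the β-arrestin1/2 KO libraries. ADCY1 was not called there (0.14 and 0.31) but was at basal without wildtype basal replicate 1 (0.34), where its basal difference in Gαs KO cells was -0.46. Without that library the regulators came to 2 higher and 1 lower of 9 tested at basal. Of the other α subunit genes (GNAS, GNA14, GNA15 and the transducins GNAT1, GNAT2 and GNAT3), 2 passed the filter and only GNAS was called. The median log2 difference at basal was -0.10 for the effectors and 0.05 for the regulators, beside 0.01 for all genes.

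The genes whose levels followed GNAL most closely over the 18 libraries were RDH10, a retinol dehydrogenase (Pearson r = 0.972), IGFBPL1 (r = 0.966) and MBTPS2, a membrane protease (r = 0.965). The points are 6 groups of 3 libraries, so these values mainly reflect differences between the lines, and they are given as a description.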

How the data were processed

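RNA-Seq libraries (poly-A, paired 150-bp reads) of 18 HEK293 samples in 6 groups were analysed. The deposited values are expected counts per transcript, as the authors obtained them from Salmon 1.7.0 (GRCh38, per the labels), without normalization, and 0 of the columns were left unused. The transcript index, its annotation release and strandedness are not given in the sources used here. The authors then used DESeq2.

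Transcripts were joined by Ensembl identifier without version to GENCODE release 29. Of 184844 transcripts, 161798 matched 34255 genes and 92.9 to 93.8% of the counts of a library. Gene sums were rounded. R 4.3.3 with edgeR 4.0.16 (TMM, filterByExpr by group, quasi-likelihood test, a coefficient per group) tested 15519 genes in 11 contrasts, and calls had a Benjamini-Hochberg adjusted p under 0.05. DESeq2 1.42.0 was an alternative. Standard errors are the log2 difference divided by the square root of F. Python 3.11.15, pandas 2.3.3 and matplotlib 3.10.9 made the tables and figures. The fit was also run on simulated data, whose outcome is not printed. No simulated library had a shifted GC content, so that run does not cover the library that stood apart.

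With 17908597 to 25019834 counts per library, members had from 32 counts (GNAO1) to 3438 (GNA11) in a library. With 3 libraries per group, an exact permutation test of a single value cannot give a two-sided p under 0.1, so none is printed. No pair of replicates was as close as sampling noise allows. The members, lists, tests and alternatives were chosen with earlier results of these data known. Named genes are the members, the targeted genes, list genes called in Gαs KO against wildtype cells in both conditions, and the 3 genes most like GNAL. MPPE1, which overlaps GNAL, was named after its values were seen. Alternatives were other scalings and filters, DESeq2's test, fewer libraries, a replicate block, offsets for GC content and length, other gene sums and an adjusted p under 0.01.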

Additional observations from a re-analysis of the deposited data

How the results depend on the processing

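The calls of GNAL, GNAI2 and GNAZ in Gαs KO against wildtype cells were kept in both conditions in all 29 alternative fits. The number of members called moved by over 1.5 times under these settings. Percentages are the share of all genes called in the same fit. Offsets for GC content and length gave 6 (46.8%, basal) and 6 (46.7%, isoproterenol) members in Gαs KO against wildtype cells, 7 (48.4%) in β-arrestin1/2 KO against wildtype cells at basal, and 5 (43.1%) in Gαs KO against β-arrestin1/2 KO cells at basal, and the same offsets with a replicate block gave 6 (46.7%), 5 (46.8%), 7 (48.1%) and 5 (42.9%). Fits of the compared groups alone gave 6 members (50.9%) in Gαs KO against wildtype cells with isoproterenol, 5 (48.2%) and 9 (54.1%) between the KO lines at basal and with isoproterenol, and 2 (7.94%; GNAQ and GNA13) for isoproterenol in β-arrestin1/2 KO cells. An adjusted p under 0.01 left 1 (16.5%) and 2 (19.9%) members between the KO lines. With protein-coding transcripts only, GNA12 changed direction in Gαs KO against wildtype cells at basal (0.26) and against β-arrestin1/2 KO cells with isoproterenol (0.023).

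Leaving out 1 library at a time gave 3 to 6 members for Gαs KO against wildtype cells in either condition, 3 to 8 and 4 to 5 for β-arrestin1/2 KO against wildtype cells, 2 to 5 and 2 to 9 between the KO lines, 0 to 2 for isoproterenol in β-arrestin1/2 KO cells and for the difference of its response, and 0 to 0 elsewhere. The highest value came each time without wildtype basal replicate 1, where it differed from the lowest by over 1.5 times, and without any other library Gαs KO against wildtype gave 3 to 4. The share of all genes called rose as well without that library. It was 45.9% and 49.4% for Gαs KO against wildtype, 46.7% and 49.6% for β-arrestin1/2 KO against wildtype, and 45.3% and 51.1% between the KO lines. For isoproterenol in β-arrestin1/2 KO cells and the difference of its response it was 11.7% and 8.25%. Leaving out Gαs KO isoproterenol replicate 1 gave 2 members between the KO lines with isoproterenol, a number printed without the share of all genes in that fit. The cause was not tested.

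Same-numbered replicates are not said to share a handling, and their deviations around the group means correlated at only -0.093 to 0.066 over genes. These values cannot show that no handling was shared, and the main fit did not pair the replicates. The replicate block on its own changed no count of members called, which stayed at 3 and 3 in Gαs KO against wildtype cells. Without the block 31.3% and 29.9% of all genes were called there. Depth limits GNAO1, with 32 to 105 counts.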
